A study of Mus musculus with 49 samples.

Results

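The expression of 10 basement membrane genes was measured in mouse embryonic stem (ES) cells: Col4a1 and Col4a2, Lama1, Lamb1 and Lamc1, Nid1 and Nid2, Hspg2, Sparc and Serpinh1. They were chosen by symbol as genes of the basement membrane, and all 10 were found among the 20489 genes of the 4 tables, in each of 49 RNA-seq libraries. The cells were TC-1 ES cells of the 129S6/SvEvTac strain, grown on gelatin with serum and LIF. Wild-type cells were untreated (n = 2) or given 1 µM doxorubicin for 4 h (n = 2) to activate p53. All other cells carried a degron tag on both endogenous alleles of Trim24, in selected homozygous clones, so that the Trim24 protein was removed by 500 nM dTAG13. In the time course, degron cells were untreated (0 h) or received doxorubicin for 2, 4, 8 or 12 h, alone (Trim24 kept) or with dTAG13 for the same hours (Trim24 degraded), with 3 libraries for each of the 9 groups. A separate uninduced experiment compared degron cells without doxorubicin after 4 h of dTAG13 (n = 3) with untreated ones (n = 3). In the RING experiment, degron cells with Trim24 kept (n = 4) or degraded (n = 4) and cells with a ligase-null Trim24, in which cysteines of the RING domain were replaced by alanines (n = 4), all received doxorubicin for 4 h. The labels name the degron-tagged genotype for the ligase-null cells too.

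A basement membrane is a thin sheet of extracellular matrix beneath epithelia. Laminin trimers of an alpha, a beta and a gamma chain polymerize into a first network on the cell surface, collagen IV trimers form a second, and nidogens and the heparan sulfate proteoglycan perlecan link the networks. Sparc is a matricellular protein that binds collagen, and Serpinh1 encodes the collagen chaperone of the endoplasmic reticulum that collagen IV needs to fold. In the early mouse embryo the primitive endoderm and its descendant, the parietal endoderm, secrete these proteins in large amounts, and ES cell cultures can hold some cells of that kind.

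Sequencing depth ran from 14422098 to 35185256 reads per library (median 19520026). The Trim24-kept replicate 7 of the RING experiment stood apart from the other libraries of its group, with a chi-square per degree of freedom of 26.7 to 27.6 over all genes against at most 4.59 among the others, and the results that rest on it are also given without it. The lowest count of any of the 10 genes in any library was 385 reads, for Col4a2. All 10 genes therefore passed the filter on low values in every comparison. Levels are given as CPM, read counts scaled to a common library total after the authors' TMM normalization, and log2 fold changes are on the deposited log2 CPM scale with a prior count of 8. A gene was called at an adjusted p under 0.01 (limma, all genes tested) where its log2 fold change was also 0.75 or more in size. For each count of called genes, the share of all tested genes called in the same comparison is given as the background. The 3 untreated libraries of the uninduced experiment carry a treatment label that names activated p53, against their titles. They were grouped by title, and Mdm2, a p53 target, stood at 184 ± 5.54 CPM there against 181 ± 4.65 CPM at 0 h and 966 ± 32.0 CPM after 4 h of doxorubicin (mean ± SD, n = 3 each). Trim24 was removed as protein, so its mRNA does not check the removal. With Trim24 kept, its mRNA went from 211 ± 3.18 CPM at 0 h to 67.2 ± 5.07 at 8 h and 69.7 ± 2.00 at 12 h. The labelled activation could be checked: Mdm2 rose by 2.69 and Cdkn1a by 1.69 on the log2 scale over 12 h of the time course with Trim24 kept. At 12 h Mdm2 was at 1167 ± 42.8 CPM with Trim24 kept and 730 ± 11.1 CPM with Trim24 degraded. Cdkn1a was at 73.2 ± 6.18 and 77.5 ± 1.40 CPM.

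Col4a1 (ENSMUSG00000031502, GRCm38 chr8:11198423-11312826, minus strand, 7.46 kb of exon) and Col4a2 (ENSMUSG00000031503, chr8:11312805-11449287, plus strand, 6.62 kb) encode the most common collagen IV chains and lie head to head, with annotated models that overlap by 22 bases. The overlap is shown because reads there cannot be assigned to one gene without strand, and the authors counted with the default settings of featureCounts, which do not use strand.
Col4a1 and Col4a2 starts, chr8:11312805-11312826, plus strand: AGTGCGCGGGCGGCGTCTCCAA
The overlap takes up a small part of either model. The other genes lie apart from each other. Lama1 is at chr17:67697259-67822647 (plus strand, 9.68 kb of exon), Lamb1 at chr12:31265234-31329644 (plus, 9.92 kb) and Lamc1 at chr1:153218922-153332786 (minus, 8.27 kb). Nid1 is at chr13:13437551-13512269 (plus, 6.94 kb), Nid2 at chr14:19751265-19811787 (plus, 5.17 kb) and Hspg2, the perlecan gene, at chr4:137468769-137570630 (plus, 14.3 kb). Sparc is at chr11:55394500-55423183 (minus, 3.79 kb) and Serpinh1 at chr7:99345376-99353239 (minus, 2.44 kb).

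RefSeq promoter sequences of GRCm38.p6, each 300 bases long, were at hand for 7 of the 10 genes, all but Lama1, Lamc1 and Nid2. The 100 bases before the annotated gene start are printed for 4 genes that differed in their responses: Lamb1 and Serpinh1, which moved with the collagen IV genes, and Nid1 and Hspg2, which did not. Capitals mark GGGCGG or CCAAT on either strand.
Lamb1, chr12:31265134-31265233, plus strand: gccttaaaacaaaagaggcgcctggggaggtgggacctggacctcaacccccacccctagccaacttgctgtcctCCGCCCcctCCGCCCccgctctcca
Serpinh1, chr7:99353240-99353339, minus strand: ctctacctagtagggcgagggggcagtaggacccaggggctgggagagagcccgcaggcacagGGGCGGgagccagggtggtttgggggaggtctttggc
Nid1, chr13:13437451-13437550, plus strand: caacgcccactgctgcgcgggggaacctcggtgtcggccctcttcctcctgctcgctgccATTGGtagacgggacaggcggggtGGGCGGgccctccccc
Hspg2, chr4:137468669-137468768, plus strand: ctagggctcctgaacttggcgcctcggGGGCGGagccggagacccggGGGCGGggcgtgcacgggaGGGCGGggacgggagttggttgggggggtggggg
Over the whole 300-base windows, GGGCGG, the GC box bound by Sp family factors, was found in 6 of the 7 genes, all but Sparc, with 5 matches in Hspg2 and 3 in Col4a2. It occurs in 35.7% of 32851 promoters of the same length. CCAAT was found in Col4a1, Col4a2, Lamb1 and Nid1, and in 37.4% of all promoters. The TATA sequence TATAAA (13.6% of all) and the GATA sequence AGATAA (11.2%) were found in none of the 7 windows on either strand. A p53 half-site (searched on both strands, in 8.36% of promoters) matched once each in Sparc and Nid1. The windows of Col4a1 and Col4a2 share 78 bases, so their matches are not independent. GC content ran from 55.3% for Sparc to 74% for Col4a1, against a median of 52.7% for all promoters. The Sparc window (chr11:55420031-55420330, start site 55420080) lies inside the gene model, which begins at 55423183 on the minus strand. Its matches therefore describe another start than that of the model. These matches describe letters in a window and not binding.

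The levels of 7 of the 10 genes, all but Nid1, Nid2 and Hspg2, spanned a far wider range over all groups than within the time course. Within the time course the span was 2.71-fold for Col4a1, 2.92-fold for Col4a2, 2.66-fold for Lama1 and 1.92-fold for Lamb1. Over all 16 groups Col4a2 spanned 46.5-fold from its lowest group mean to its highest, Lama1 44.9-fold, Col4a1 39.8-fold, Lamb1 22.6-fold and Serpinh1 18.1-fold. Lamc1 spanned 6.54-fold and Sparc 5.20-fold. Hspg2 spanned 4.43-fold, of which 4.06-fold lay within the time course, and the nidogens spanned 1.80-fold (Nid1) and 1.53-fold (Nid2). Col4a1 stood at 195 and 226 CPM in the untreated wild-type libraries, at 345, 373 and 330.5 CPM in the untreated time-course libraries and at 3965, 3928 and 4114 CPM in the untreated libraries of the uninduced experiment. The untreated degron cells of the uninduced experiment thus lay 11.5-fold above those of the time course for Col4a1, although the titles of both name untreated degron cells. The corresponding ratio was 11.3 for Col4a2, 10.5 for Serpinh1, 9.11 for Lama1, 8.26 for Lamb1, 4.39 for Sparc and 4.02 for Lamc1, and it was 2.44 for Hspg2, 1.42 for Nid2 and 1.04 for Nid1. These are separate experiments, and the values are set side by side without a test.

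**Figure D1:**
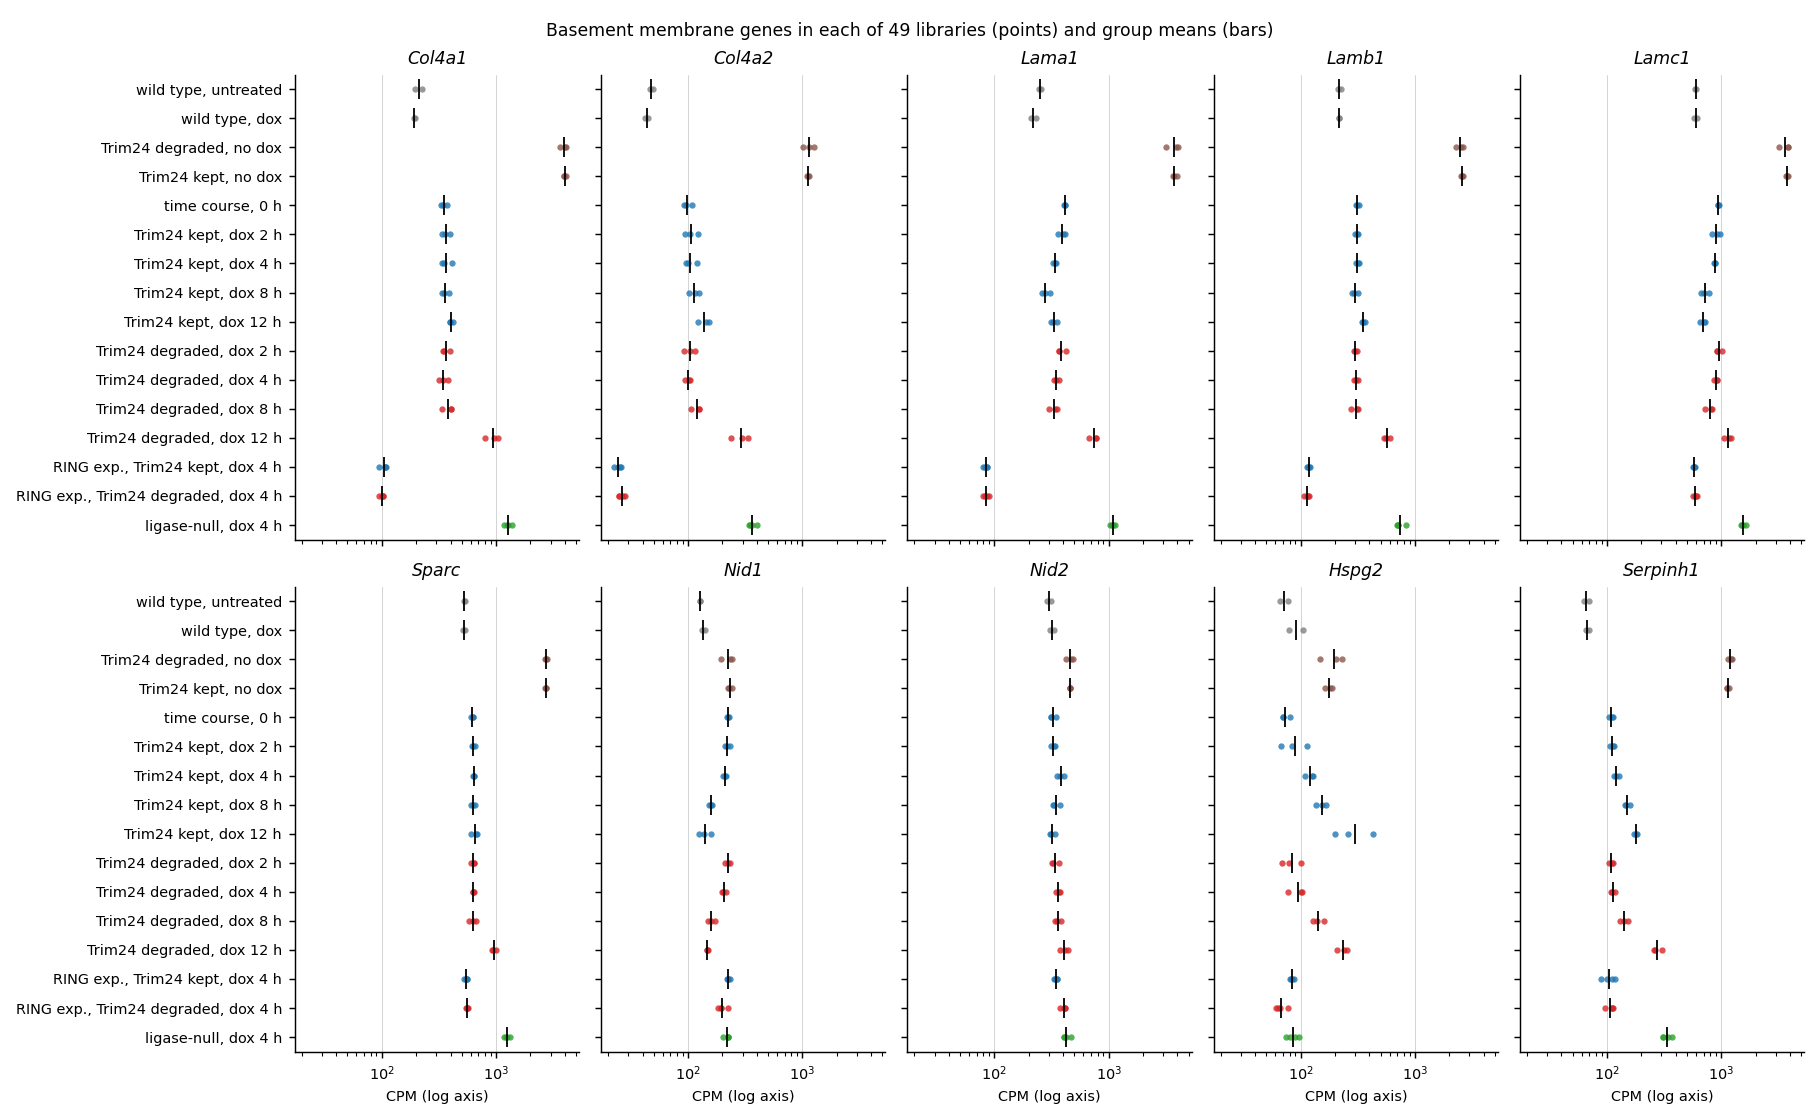
Levels of the 10 basement membrane genes (CPM, log axis) in each of 49 libraries, with points for libraries and bars for group means, 1 row per group. For Col4a1, Col4a2 and the laminin genes the uninduced experiment lies highest (Col4a1 near 4002 CPM) and the degron cells of the RING experiment lowest (Col4a1 near 104 CPM), while Nid1 and Nid2 stay within a narrow range.

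A list of 15 markers of primitive and parietal endoderm was measured beside them. Its summed level was 246 to 250.2 CPM over the untreated wild-type libraries, 363 to 366 CPM at 0 h of the time course and 2804 to 3040.4 CPM in the untreated libraries of the uninduced experiment. In the Trim24-kept cells of the RING experiment it was 107 to 116 CPM. These 4 groups therefore had the same order for the markers as for the collagen IV and laminin genes. Gata4, an endoderm transcription factor, stood at 109.9 ± 1.53 CPM in the uninduced experiment and 10.3 ± 0.945 CPM at 0 h, and Gata6 at 108 ± 5.26 and 7.75 ± 0.299 CPM (mean ± SD, n = 3 each). No marker was at 0 reads over a group, though Sox17, Sox7 and Foxa2 were under 1 CPM in the degron cells of the RING experiment. The part of such cells in these levels was not tested, and in bulk RNA a larger number of cells of a type and more RNA per cell cannot be told apart. A list of 10 pluripotency genes summed to 4402 to 4602 CPM in the untreated uninduced libraries and 5610.2 to 5670.2 CPM at 0 h. A list of 12 fibroblast genes summed to 36.4 to 38.5 and 29.1 to 34.3 CPM, with Fap at 0 reads in both groups.

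**Figure D2:**
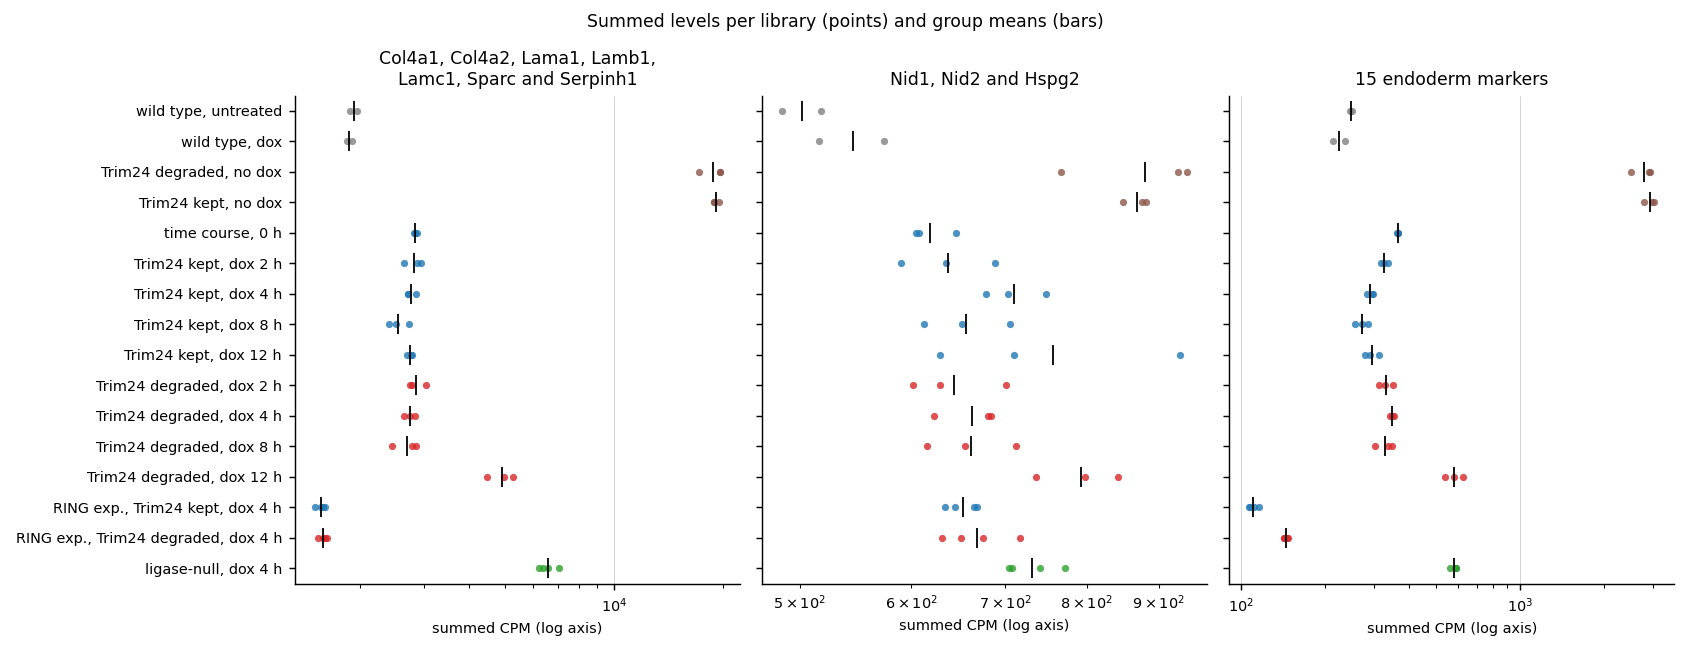
Summed CPM (log axis) per library, as points, with group means as bars, for Col4a1, Col4a2, Lama1, Lamb1, Lamc1, Sparc and Serpinh1 (left), for Nid1, Nid2 and Hspg2 (middle) and for 15 endoderm markers (right). The genes were split in this way after their values were seen. The left and right panels place the uninduced experiment highest and the degron cells of the RING experiment lowest, and both rise in the Trim24-degraded libraries at 12 h and in the ligase-null libraries.

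Per kb of exon, which allows genes to be compared within a library, Sparc was the highest of the 10 at 0 h of the time course with 163 CPM per kb, followed by Lamc1 with 114 and Nid2 with 62.6. Col4a1, Serpinh1 and Lama1 lay close together at 46.8, 44.5 and 42.7 CPM per kb, Nid1 and Lamb1 at 32.0 and 31.5, and Col4a2 and Hspg2 were lowest with 15.0 and 5.11. A collagen IV trimer of the most common kind holds 2 chains of Col4a1 and 1 of Col4a2. The level of Col4a1 per kb over that of Col4a2 was 3.13 ± 0.05 at 0 h (mean ± SD, n = 3), and it stayed between 2.59 and 3.93 over all 16 groups, while the genes themselves spanned 39.8-fold and 46.5-fold. The laminin chains did not keep to 1 ratio. Lamc1 over Lamb1 was 3.61 ± 0.10 at 0 h, 5.91 ± 0.20 in the Trim24-kept cells of the RING experiment and 1.75 ± 0.07 in the Trim24-degraded libraries of the uninduced experiment. Lama1 over Lamb1 was 1.36 ± 0.06, 0.73 ± 0.04 and 1.52 ± 0.10 in the same groups. By group means per kb, Lamc1 was above both other chains in all 16 groups. Lamc1 over Lamb1 ran from 1.75 to 6.20 and Lama1 over Lamc1 from 0.12 to 0.87. Lamc1 over Lamb1 was lowest in the uninduced experiment and highest in the degron cells of the RING experiment.

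**Figure D3:**
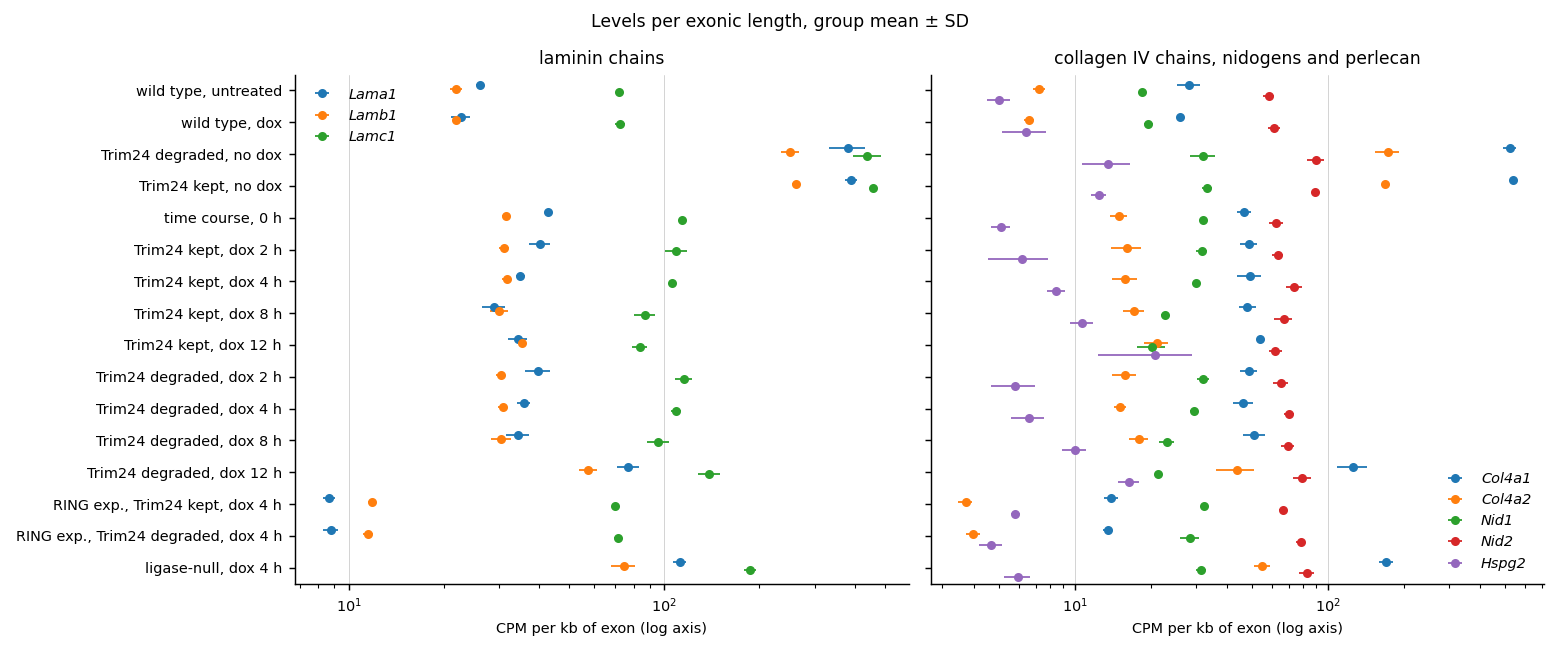
Level per kb of exon (CPM per kb, log axis) as group mean ± SD, for the laminin chains (left) and for the collagen IV chains, nidogens and perlecan (right), 1 row per group. Col4a1 and Col4a2 keep a near-constant distance, 2.59 to 3.93 as a ratio, whereas Lamc1 over Lamb1 runs from 1.75 to 6.20.

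The first comparison asked how p53 activation changes these genes while Trim24 is kept. Hspg2 was the only one of the 10 that was called, at 8 and at 12 h. Its level was 69.4, 80.0 and 69.7 CPM at 0 h, 129, 109 and 125 CPM at 4 h, 154, 136 and 168 CPM at 8 h and 199, 431 and 259.7 CPM at 12 h, so the groups did not overlap with 0 h from 4 h on, and at 12 h the libraries lay far apart. After 2 h, 0 of the 10 genes were called (background 3.74%, 0 called by voom). At an unadjusted p under 0.05 there were 0, against 4424 of 15515 genes tested. After 4 h, 0 were called (background 18.7%), with 6 at an unadjusted p under 0.05, against 9962 of 15772 genes tested. Voom called 1 at 4 h, Hspg2, whose log2 fold change was 0.73 (SE 0.07, adjusted p = 4.38e-08), just under the size asked for. After 8 h, Hspg2 alone was called higher at 1.06 (SE 0.07, adjusted p = 7.86e-28), with 27% of all genes called higher. After 12 h, Hspg2 had risen by 1.94 (SE 0.31, adjusted p = 0.00259), with 30.3% of all genes called higher. The 12 h call was lost when any 1 of the 3 libraries of 0 h was left out (adjusted p = 0.0103 to 0.0174) and with the replicate number as a block (adjusted p = 0.0107), although the log2 fold change stayed between 1.64 and 2.19 whichever library was left out. Without the highest of the 12 h libraries it was 1.64 (adjusted p = 5.8e-10). At both times 1 called gene of 10 is a smaller share than the background.

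The differences of the other genes were below the threshold for size. Without a minimum fold change, 3 genes were higher and 3 lower at 8 h at an adjusted p under 0.01, where 37.6% of all genes were higher and 37.2% lower. At 12 h, 5 were higher and 3 lower, with 40.1% and 38% of all genes. These shares lie near the background. Nid1 was at 222, 217 and 227 CPM at 0 h, 163, 152 and 159.9 CPM at 8 h and 124, 159 and 137 CPM at 12 h, a log2 fold change of −0.68 (SE 0.07, adjusted p = 1.72e-07). Serpinh1 went from 104, 112 and 109.9 CPM to 184, 174 and 179 CPM at 12 h, 0.72 (SE 0.06, adjusted p = 2.40e-09). In neither gene did the 12 h libraries overlap those of 0 h. Lamc1 had −0.45 (SE 0.06, adjusted p = 1.18e-06), Lama1 −0.32 (SE 0.06, adjusted p = 9.01e-05) and Col4a2 0.49 (SE 0.08, adjusted p = 1.82e-05), and Col4a1 was at 0.21, Lamb1 at 0.17, Sparc at 0.07 and Nid2 at −0.01.

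Markers of cell types were measured beside these genes. Of the 15 endoderm markers 0 were called higher and 5 lower at 12 h (Sox17, Gata4, Sox7, Dab2 and Gata6), where 22.9% of all genes were called lower, and the list summed to 279 to 312 CPM against 363 to 366 CPM at 0 h. Of the 10 pluripotency genes 0 were called higher and 9 lower, with sums of 1156 to 1257 CPM and 5610.2 to 5670.2 CPM. Of the 9 fibroblast genes tested 3 were called higher and 1 lower, near the 30.3% of all genes called higher, with sums of 59.8 to 74.2 CPM and 29.1 to 34.3 CPM. Their part in the values of Hspg2, Nid1 and the other genes was not tested.

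Directions at 8 and 12 h depended on the scaling for several genes. The median log2 fold change of all genes at 12 h was 0.04 as deposited, 0.36 with voom on library totals, −0.12 after quantile normalization and −0.17 after median centring. Under all 4 scalings Hspg2, Serpinh1 and Col4a2 had positive values and Nid1 a negative one at 12 h. Lamc1 was at −0.45 as deposited, −0.13 with voom, 0.21 after quantile normalization and −0.66 after centring, and Lama1 at −0.32, −0.00, 0.22 and −0.54, so no direction can be given for the laminin alpha and gamma chains at 12 h. Col4a1, Lamb1, Sparc and Nid2 also changed sign among the 4 scalings. At 8 h the same held for Col4a1, Col4a2, Lamb1, Lamc1, Sparc and Nid2, while Hspg2 and Serpinh1 were positive and Lama1 and Nid1 negative under all 4. Over all genes, 4964 were called higher and 3762 lower at 12 h as deposited, 6253 and 2521 with voom, 3789 and 4415 after quantile normalization, and 4172 and 4905 after centring. At 8 h the split was 4452 to 3016 as deposited, 5802 to 1813 with voom, 3228 to 3656 after quantile normalization and 3622 to 4277 after centring.

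From one time to the next while Trim24 was kept, 0 of the 10 genes were called from 2 to 4 h (background 9.8%), from 4 to 8 h (background 24.3%) or from 8 to 12 h (background 6.42%), and voom called 0 in each. At an unadjusted p under 0.05 there were 2, 6 and 6 of them, against 7779 of 15816, 11741 of 16522 and 8072 of 16876 genes tested. Nid1 had the largest decrease of these steps, −0.40 (SE 0.06, adjusted p = 1.21e-09) from 4 to 8 h. The largest increase was that of Hspg2 from 8 to 12 h, 0.89 (SE 0.34, adjusted p = 0.119), which misses the adjusted p. In wild-type cells 0 genes were called after 4 h (background 10.3%, 0 by voom). There were 2 at an unadjusted p under 0.05, against 7229 of 16448 genes tested. Hspg2 was at 66.7 and 77.5 CPM untreated and at 79.2 and 105 CPM with doxorubicin, 0.34 (SE 0.09, adjusted p = 0.000425), and no library with doxorubicin was below an untreated one.

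**Figure D4:**
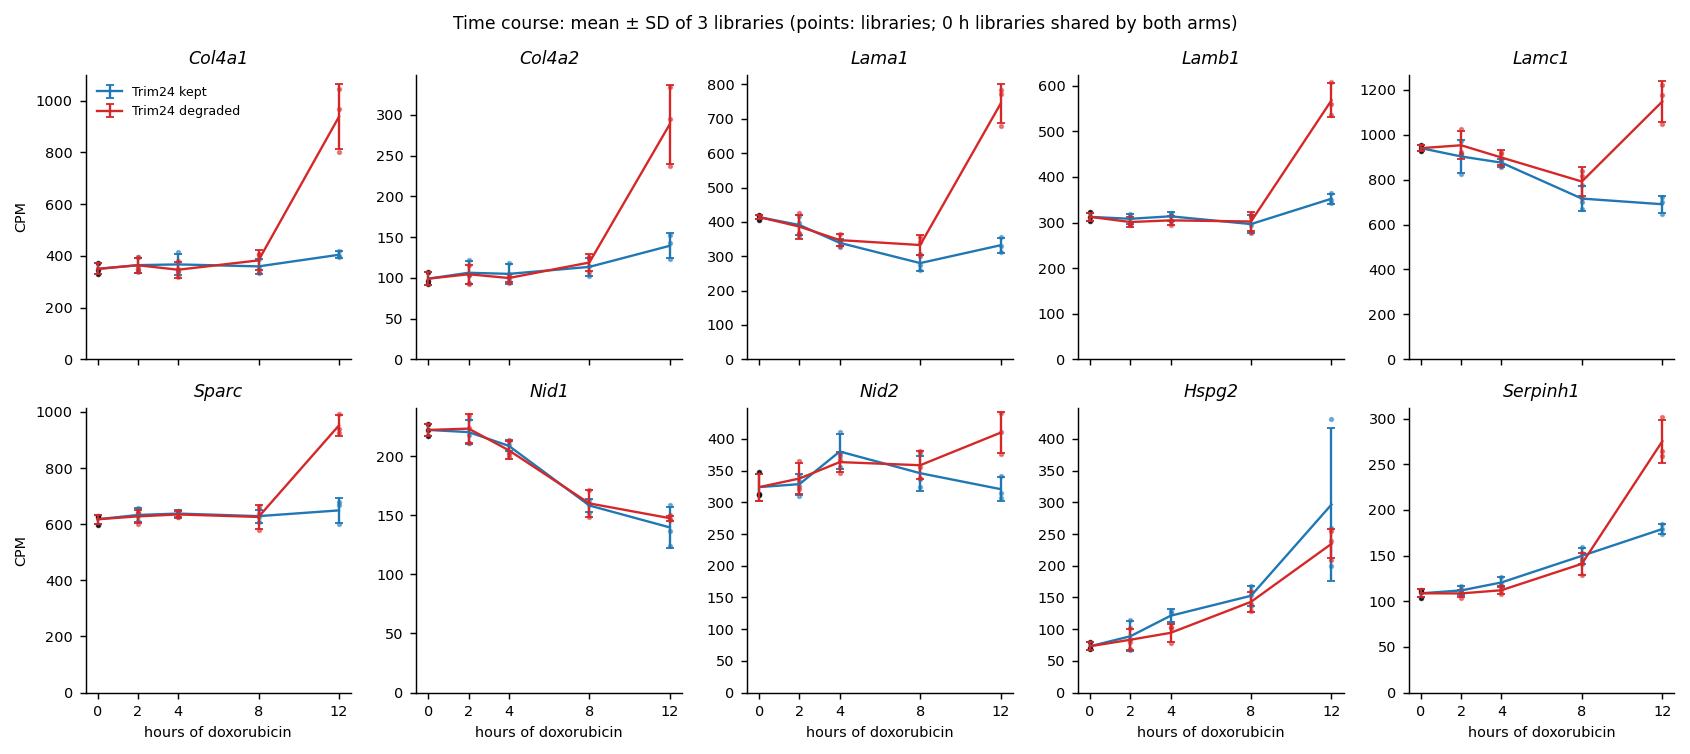
CPM of each gene against hours of doxorubicin in the time course, as mean ± SD of 3 libraries with the libraries as points, for Trim24 kept (blue) and Trim24 degraded (red), which share the 0 h libraries. Up to 8 h no difference was called, although the Hspg2 libraries of the groups did not overlap at 4 h. At 12 h every degraded library lies above every kept one for 8 of the 10 genes, all but Nid1 and Hspg2. The same 8 genes were higher at an adjusted p under 0.01 (limma), against 8.47% of all genes. The share of all genes without overlap was not counted, so the number without overlap has no background to be read against.

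The second comparison asked how loss of Trim24 changes these genes while p53 is active. Up to 8 h no difference was called. The log2 fold changes of the 10 genes ran from −0.08 to 0.08 at 2 h, from −0.37 to 0.04 at 4 h, and from −0.09 to 0.25 at 8 h. At these times 0 of 10 were called, against backgrounds of 0.338%, 1.15% and 1.58%, and voom called 0 as well. At an unadjusted p under 0.05 there were 0, 1 (Hspg2) and 1 (Lama1), against 1179 of 15688, 4018 of 16138 and 3957 of 17424 genes tested. Hspg2 stood at 109 to 129 CPM with Trim24 kept and 77.7 to 103 CPM with Trim24 degraded at 4 h, −0.37, without overlap but not called. Lama1 stood at 275, 259.9 and 305 CPM with Trim24 kept and 333 ± 28.1 CPM (mean ± SD, n = 3) with Trim24 degraded at 8 h, 0.25 (SE 0.08, adjusted p = 0.0321).

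At 12 h the collagen IV genes and Lama1 were higher in the cells that had lost Trim24. Of the 10 genes, these 3 passed both thresholds, against 2.7% of all genes called higher. Col4a1 was at 394, 399.8 and 419 CPM with Trim24 kept and at 968, 1045 and 799 CPM with Trim24 degraded. Every degraded library lay above every kept one, a log2 fold change of 1.21 (SE 0.08, adjusted p = 1.38e-09), or 2.31-fold. Col4a2 was at 123, 152 and 143 CPM and 295, 334 and 237 CPM, 1.04 (SE 0.14, adjusted p = 0.00147). Lama1 was at 311, 356 and 329 CPM and 772, 783 and 678 CPM, 1.16 (SE 0.07, adjusted p = 5.42e-12). The groups did not overlap for either gene.

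A further 5 genes differed at an adjusted p under 0.01 with a smaller size, so that 8 of 10 were higher without a minimum fold change, against 8.47% of all genes. The beta and gamma chains followed the alpha chain of laminin. Lamb1 was at 349.6, 364 and 343 CPM and 561, 608 and 535 CPM, 0.69 (SE 0.06, adjusted p = 1.33e-08). Lamc1 was at 648, 723 and 701 CPM and 1179, 1219 and 1046 CPM, 0.73 (SE 0.07, adjusted p = 1.39e-08). The collagen chaperone gene Serpinh1 was at 184, 174 and 179 CPM and 259, 302 and 265 CPM, 0.62 (SE 0.07, adjusted p = 1.52e-07). In all 3 genes each degraded library lay above each kept one. Sparc had 0.55 (SE 0.06, adjusted p = 5.05e-07) and Nid2 0.35 (SE 0.07, adjusted p = 0.000299), again without overlap. With voom or quantile normalization Lamb1 and Lamc1 were called too, which made 5.

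Nid1 and Hspg2 were not among them. Nid1 was at 124, 159 and 137 CPM with Trim24 kept and 147, 146 and 149.9 CPM with Trim24 degraded, 0.09 (SE 0.07, adjusted p = 0.402), with overlapping groups. The 95% interval of its log2 difference was −0.07 to 0.24. Hspg2 was at 199, 431 and 259.7 CPM and 239, 255 and 209.7 CPM, −0.27 (SE 0.33, adjusted p = 0.598), with a wide interval of −1.14 to 0.61. Without the highest kept library the Hspg2 difference was 0.04. The median log2 fold change of the 10 genes was 0.65, and that of all genes tested −0.02.

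The effect at 12 h was compared with that at 4 h in 1 model. The difference of the log2 fold changes passed an adjusted p under 0.01 for 8 of the 10 genes, all higher at 12 h, against 5.31% of all genes. It was 1.29 (SE 0.14, adjusted p = 4.88e-05) for Col4a1, 1.11 (SE 0.18, adjusted p = 0.00189) for Col4a2 and 1.13 (SE 0.08, adjusted p = 4.85e-10) for Lama1. For Lamb1, Serpinh1, Lamc1, Sparc and Nid2 it ran from 0.41 (Nid2) to 0.73 (Lamb1), and for Nid1 and Hspg2 it was 0.11 and 0.10 (adjusted p = 0.399 and 0.875). The effect at 2 h differed from that at 4 h for 0 of the 10 (background 0.0787%, 0 by voom), and so did the effect at 8 h (background 0.254%, 0 by voom). At an unadjusted p under 0.05 there were 0 and 1 of the 10, against 1783 of 16508 and 1874 of 17713 genes tested.

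Markers of endoderm moved with these genes. Of the 15 markers, 9 were called higher on Trim24 loss at 12 h (2.7% of all genes) and 0 lower, with a median log2 fold change of 0.80. Their summed level was 279 to 312 CPM with Trim24 kept and 539 to 624 CPM with Trim24 degraded. At 4 h it was 283 to 296 and 341 to 354 CPM, and at 8 h 255 to 286 and 302 to 348 CPM. The marker sums thus did not overlap at 4 or 8 h either. At these times 0 of the 15 markers were called (1.15% and 1.58% of all genes), and no difference was called in the basement membrane genes. Srgn, a proteoglycan that parietal endoderm secretes, had 1.13 (SE 0.08, adjusted p = 1.13e-10), Sox17 1.16 (SE 0.17, adjusted p = 2.95e-05) and Cubn, an endocytic receptor of visceral endoderm, 1.12 (SE 0.07, adjusted p = 1.58e-11). Gata4 had 0.80 (SE 0.16, adjusted p = 0.000498), while Gata6 was at −0.08, Foxa2 at 0.18 and Sox7 at 0.22 and were not called. These markers were named after their values were seen. Sox7 was under 1 CPM in both groups at 12 h, and no marker was at 0 reads. The pluripotency genes summed to 1156 to 1257 and 1183 to 1280.4 CPM. The fibroblast genes summed to 59.8 to 74.2 and 59.8 to 60.8 CPM. The part of endoderm-like cells in the 12 h difference was not tested.

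In cells without doxorubicin, no difference was detected in the 10 genes after loss of Trim24 for 4 h. Col4a1 was at 4001, 4088 and 3636 CPM with Trim24 degraded and 3965, 3928 and 4114 CPM with Trim24 kept, and Lama1 at 4032, 3922 and 3148 and 3649.6, 3703 and 3951 CPM, with overlapping groups. Of the 10 genes 0 were called (background 0.0781%, 0 by voom), and the log2 fold changes ran from −0.06 to 0.10. At an unadjusted p under 0.05 there were 0, against 1199 of 15360 genes tested. The 95% interval was −0.15 to 0.08 for Col4a1, −0.10 to 0.15 for Col4a2 and −0.18 to 0.11 for Lama1. It was made after 4 h and has no counterpart at 12 h.

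In the RING experiment, loss of Trim24 for 4 h under doxorubicin called 0 of the 10 genes (background 1.15%, 0 by voom). There were 3 at an unadjusted p under 0.05, against 5426 of 16313 genes tested. The linker genes had small differences. Nid1 was at 224, 226, 232 and 221 CPM with Trim24 kept and 193, 223, 184 and 193 CPM with Trim24 degraded, −0.19 (SE 0.05, adjusted p = 0.00479), with 1 degraded library inside the range of the kept ones, and the adjusted p was 0.0151 to 0.0421 without any 1 of 5 of the 8 libraries (kept replicates 5 and 6, degraded replicates 4, 6 and 7). Nid2 was at 356, 337, 353 and 329.5 CPM and 416, 417, 403 and 378 CPM, 0.23 (SE 0.05, adjusted p = 0.000251), without overlap. Hspg2 was at 88.0, 81.7, 80.1 and 83.3 CPM and 66.1, 77.0, 63.6 and 60.9 CPM, −0.32 (SE 0.06, adjusted p = 0.000132), without overlap. In the time course at 4 h the same 3 genes had −0.03, −0.06 and −0.37, so the Hspg2 values had the same sign in both experiments and those of Nid2 did not. The other 7 genes lay between −0.05 and 0.10. Without the kept replicate 7, 0 of the 10 were called, and Nid1 was at −0.20, Nid2 at 0.21 and Hspg2 at −0.32.

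**Figure D5:**
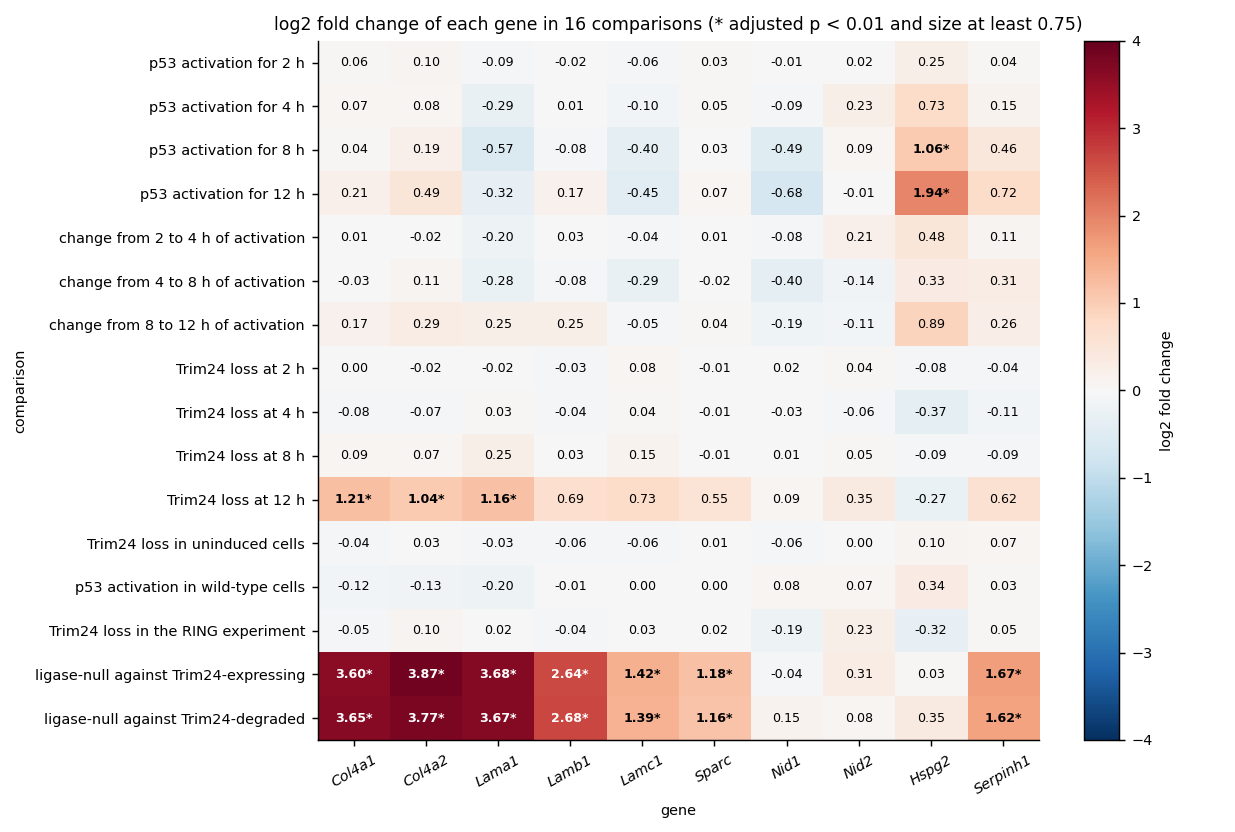
Log2 fold change of each of the 10 genes (columns) in 16 comparisons (rows), shown as colour and number, with an asterisk for genes called at an adjusted p under 0.01 and a size of at least 0.75. The called genes are Hspg2 at 8 and 12 h of activation, Col4a1, Col4a2 and Lama1 on Trim24 loss at 12 h, and 7 genes in each ligase-null comparison.

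The collagen IV, laminin, Sparc and Serpinh1 genes had their largest differences within an experiment in the ligase-null cells. Against cells that kept Trim24, 7 of the 10 genes were called higher and 0 lower, where 4.67% of all genes were called higher. The collagen IV genes and the laminin alpha chain differed most. Col4a1 was at 106, 106, 109 and 95.0 CPM in the Trim24-kept cells and 1376, 1251, 1281 and 1170.2 CPM in the ligase-null cells, 3.60 (SE 0.06, adjusted p = 4.59e-32), or 12.2-fold. Col4a2 was at 25.4, 24.2, 26.1 and 22.5 CPM and 401, 339, 366 and 349 CPM, 3.87 (SE 0.06, adjusted p = 4.59e-32). Lama1 was at 83.3, 86.6, 86.8 and 79.2 CPM and 1142, 1063, 1103 and 1020.5 CPM, 3.68 (SE 0.05, adjusted p = 7.29e-33). In these 3 genes the lowest ligase-null library lay far above the highest of the other group. The other laminin chains differed by less. Lamb1 was at 121, 119, 114 and 115 CPM and 832, 709, 699 and 707 CPM, 2.64 (SE 0.06, adjusted p = 2.93e-28). Lamc1 was at 581, 569, 586 and 577 CPM and 1633, 1487, 1548 and 1509 CPM, 1.42 (SE 0.05, adjusted p = 5.53e-22). The order alpha, beta, gamma of the differences is that of the spans over the whole series. The lowest means of those spans came from the degron cells of the RING experiment, which include the reference here. The orders are therefore not independent.

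Serpinh1 was at 112, 100.9, 117 and 88.5 CPM with Trim24 kept and 368, 309.7, 339 and 310.4 CPM in the ligase-null cells, 1.67 (SE 0.07, adjusted p = 2.08e-15), and Sparc had 1.18 (SE 0.05, adjusted p = 2.39e-19), both without overlap. The linker genes stood apart from these. Nid2 was at 467, 411, 427 and 403 CPM in the ligase-null cells, 0.31 (SE 0.05, adjusted p = 2.56e-05). Nid1 had −0.04 (SE 0.05, adjusted p = 0.545) with a 95% interval of −0.15 to 0.06, and Hspg2 had 0.03 (SE 0.07, adjusted p = 0.749) with −0.11 to 0.17. The median log2 fold change of the 10 genes was 1.54, against −0.02 for all genes tested. Without the Trim24-kept replicate 7 the same 7 genes were called, with Col4a2 at 3.83, Lama1 at 3.65, Col4a1 at 3.56, Lamb1 at 2.64, Serpinh1 at 1.59, Lamc1 at 1.41 and Sparc at 1.16. Against cells with Trim24 degraded, which share the ligase-null libraries with the comparison above, 7 were called higher (background 4.83%): Col4a1 by 3.65, Col4a2 by 3.77, Lama1 by 3.67, Lamb1 by 2.68, Serpinh1 by 1.62, Lamc1 by 1.39 and Sparc by 1.16 on the log2 scale. Nid1 was at 0.15, Nid2 at 0.08 and Hspg2 at 0.35 there.

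The mutation and the cell line that carries it cannot be told apart, since the ligase-null cells are a line of their own. All 15 endoderm markers were called higher in the ligase-null cells in both comparisons, where 4.67% (against Trim24 kept) and 4.83% (against Trim24 degraded) of all genes were higher. The markers had a median log2 fold change of 2.46 against Trim24-kept cells. Their summed level was 561 to 589.6 CPM in the ligase-null cells, 107 to 116 CPM with Trim24 kept and 142 to 147 CPM with Trim24 degraded, and no marker was under 1 CPM in the ligase-null cells. Srgn was at 109 ± 0.556 CPM against 2.53 ± 0.46 CPM and Gata6 at 10.3 ± 1.42 against 1.87 ± 0.224 (mean ± SD, n = 4 each). The pluripotency genes summed to 2937 to 3297 and 3023 to 3374 CPM. The fibroblast genes summed to 21.1 to 23.1 and 31.5 to 34.1 CPM, ranges that did not overlap. The part of endoderm-like cells in the ligase-null difference was not tested. Col4a1 was at 1269 CPM in the ligase-null cells, after 4 h of doxorubicin. In untreated degron cells it was at 349 CPM in the time course and at 4002 CPM in the uninduced experiment. Both treatment and experiment differ here, and these values were not tested against each other.

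Other genes of the basement membrane were read in the same comparisons. A list of 32 further components (among them other laminin and collagen IV chains, fibulins and netrins) had 20 of 31 tested members called higher and 0 lower after 12 h of p53 activation, with a median log2 fold change of 1.21 against 0.04 for all genes, while 30.3% of all genes were called higher. The largest were those of Lamc3, a laminin gamma chain (5.24, SE 0.16, adjusted p = 5.74e-15), Npnt, an integrin ligand (5.16, SE 0.09, adjusted p = 4.79e-18), Fbln2, a fibulin (3.89, SE 0.11, adjusted p = 2.35e-15) and Smoc2, a Sparc relative (3.67, SE 0.18, adjusted p = 2.30e-12). After 4 h it was 8 higher and 1 lower of 28, where 12.9% of all genes were higher and 5.8% lower. On Trim24 loss at 12 h 2 of 31 were called higher, against 2.7% of all genes. They were Hmcn1 (2.73, SE 0.10, adjusted p = 2.34e-16) and Fras1 (1.21, SE 0.12, adjusted p = 2.51e-08). Hmcn1 was named after its values were seen. Fras1, which encodes a basement membrane protein of the Fraser complex, was also called after 4 h, with 1.21 (SE 0.13, adjusted p = 6.47e-07) in the time course and 1.09 (SE 0.14, adjusted p = 2.52e-07) in the RING experiment. In the ligase-null cells 7 of 31 were higher and 1 lower than with Trim24 kept, against 4.67% and 2.28% of all genes. Tinagl1 had 2.91, Fras1 1.93, Ntn4 1.70, Egflam 1.25, Lama3 1.17, Ntn1 1.15, Frem2 0.84 and Papln −0.83.

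Enzymes that modify, fold and crosslink collagen made up a list of 30. On Trim24 loss at 12 h 4 were called higher and 0 lower, Pxdn (1.00, SE 0.09, adjusted p = 3.39e-09), the peroxidase that crosslinks collagen IV, Loxl2 (0.92, SE 0.08, adjusted p = 2.31e-09), a lysyl oxidase, P3h2 (0.83, SE 0.15, adjusted p = 0.000204), a prolyl hydroxylase of collagen IV, and P3h4 (0.77, SE 0.11, adjusted p = 1.14e-05), which was named after its values were seen. In the ligase-null cells 6 were called higher and 0 lower: Loxl2 at 3.17, Pxdn at 2.14, P3h2 at 2.04, the prolyl hydroxylase subunits P4ha2 at 1.48 and P4ha1 at 1.32, and the transcription factor Creb3l2 at 1.45. The medians of the list were 0.17 and 0.22 in these comparisons, and −0.02 for all genes in both. Of all genes, 2.7% and 4.67% were called higher in these comparisons. After 12 h of p53 activation 9 of 30 were higher and 3 lower, a share of higher genes near the 30.3% of all genes and with 22.9% of all genes lower. The largest changes were those of P3h3 (2.54, SE 0.10, adjusted p = 6.24e-14), Fkbp10 (2.37, SE 0.06, adjusted p = 2.55e-16), Plod2 (2.23, SE 0.07, adjusted p = 2.35e-15) and P4ha2 (1.95, SE 0.06, adjusted p = 1.09e-14).

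Receptors for the basement membrane, such as integrins, syndecans and discoidin receptors, made up a list of 27. Of 27 tested, 0 were higher and 1 lower on Trim24 loss at 12 h (1.41% of all genes were lower), Itga2 (−1.07, SE 0.12, adjusted p = 2.09e-07), an integrin chain that binds collagen. In the ligase-null cells 1 was higher and 0 lower than with Trim24 kept, where 4.67% of all genes were higher. It was Parva (1.24, SE 0.14, adjusted p = 4.34e-09), an adaptor of integrin adhesions. Sdc3 was the only one called on Trim24 loss in the RING experiment (−0.81, SE 0.18, adjusted p = 0.000978), with 1.15% of all genes called. After 12 h of p53 activation 9 of 27 were higher and 6 lower, both near the background of 30.3% and 22.9%, with the epithelial adaptor Fermt1 (5.37, SE 0.14, adjusted p = 3.09e-15), Itga2 (4.18, SE 0.19, adjusted p = 9.13e-13), the collagen receptor Ddr1 (3.54, SE 0.07, adjusted p = 2.84e-17) and Itgb4 (3.53, SE 0.09, adjusted p = 5.37e-16) at the top. A list of 23 matrix proteases and their inhibitors had 5 of 22 tested called higher and 0 lower on Trim24 loss at 12 h, where 2.7% of all genes were higher. These were Adamts1 (1.44, named after its values were seen), Adamts9 (1.19), Plat (0.91), Timp2 (0.84) and Ctsl (0.82). In the ligase-null cells the list had 7 higher and 0 lower than with Trim24 kept, where 4.67% of all genes were higher. These were Plat at 3.45, Adamts9 at 3.33, Plaur at 2.69, Timp2 at 1.61, Timp3 at 1.52, Ctsl at 1.48 and Bmp1 at 0.99. After 12 h of p53 activation 9 of 22 were higher and 3 lower, against 30.3% and 22.9% of all genes, with the largest changes in Plau (4.10, SE 0.14, adjusted p = 1.32e-14), Serpine2 (4.07, SE 0.06, adjusted p = 1.32e-18), Mmp15 (3.70, SE 0.12, adjusted p = 1.30e-12) and Bmp1 (2.31, SE 0.09, adjusted p = 9.45e-14).

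The genes whose time-course pattern was most like the mean pattern of the 10 were sought among 8367 other genes, by Pearson correlation over the 9 group means. They were Clu (r = 0.988), Srgn (0.987), Dgat1 (0.972), Lgmn (0.970) and Loxl2 (0.967). Clu, an extracellular chaperone, was at 78.8 CPM at 0 h, 87.6 CPM with Trim24 kept at 12 h and 152 CPM with Trim24 degraded at 12 h. Loxl2 was at 18.2, 25.1 and 48.0 CPM in the same groups. Among the 10 themselves the correlation with their own mean pattern was highest for Col4a1 (0.993), Lamb1 (0.991) and Col4a2 (0.991) and lowest for Lamc1 (0.515) and Nid1 (−0.577). These correlations run over 9 points from 1 experiment, 1 of which, the degraded group at 12 h, lies apart from the rest.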

How the data were processed

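RNA-seq of mouse ES cells was analysed from 4 deposited tables of 20489 genes and 49 libraries, of which every column was used. The authors prepared stranded total RNA libraries, demultiplexed with bcl2fastq 2.17 or 2.20, aligned to mm10 with STAR (multi-mapping reads were assigned to a random one of their sites) and counted protein-coding genes with featureCounts at its default settings, without strand. Per the labels and file headers the deposited values are log2 CPM after TMM scaling with edgeR and a prior count of 8. Predicted genes with a Gm name had been excluded. From these values the read counts were recovered, and 100% came out whole within 0.01. The CPM printed here are these reads over the scaled library size, without the prior.

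Only groups of the same experiment were compared, with limma 3.58.1 in R 4.3.3 (lmFit, eBayes with trend and robust) on the deposited values, and p was adjusted by Benjamini-Hochberg over all genes tested. Genes entered a test when the number of libraries lying 0.5 above the floor of −1.48 reached the size of the smaller group. There were 19 comparisons, 3 of them differences between times. The deposited values were also tested with voom on the recovered reads, with quantile normalization, median centring, no filter, a stricter filter (1.5 above the floor), neither trend nor robust estimation, a prior of 1 read, another threshold, a replicate block, all groups in 1 fit and with each library left out. The fits were tested on simulated data.

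Replicates in the labels are biological, but separate cultures are not described, so p-values measure the spread between libraries. No 2 replicates differed by as little as sampling noise (chi-square per degree of freedom 2.08 to 27.6 in 53 pairs, and 26.7 or more in the 3 pairs that hold the Trim24-kept replicate 7 of the RING experiment). Replicate numbers did not pair the libraries: the correlation of deviations passed 0.1 in 16 of 33 pairs.

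The 10 genes, the lists and the comparisons were chosen with earlier results of these data known. Named besides the 10 are Trim24, Mdm2 and Cdkn1a, up to 4 genes of each list with the largest change after 12 h of p53 activation, any list gene called on Trim24 loss at 4 h, in the RING experiment or in ligase-null cells against Trim24-kept cells, and 5 genes of like pattern. The values of 1 marker gene are not reported here. Gene models came from GENCODE on GRCm38, in a release that differs from the authors', and promoters from RefSeq on GRCm38.p6. Python 3.11.15 and pandas 2.3.3 were used for descriptions.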

Additional observations from a re-analysis of the deposited data

Results flagged for a closer look

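In 3 of 30 cases examined (10 genes in the 3 groups of 4 libraries), 1 library lay far from the others of its group. The gap to the nearest library, as a share of the range of the group, was 0.924 for Lamb1 in ligase-null replicate 1 (832 CPM against 699 to 709), 0.896 for Nid1 in ligase-null replicate 4 (204 CPM against 223 to 225) and 0.925 for Serpinh1 in Trim24-degraded replicate 7 of the RING experiment (95.7 CPM against 111 to 112), each past Dixon's 95% limit for a group of this size. By chance about 1 in 20 groups would pass. Leaving out any of these libraries left the calls of the 3 genes as they were.

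The effect of Trim24 loss differed between 12 h and 4 h of activation for 8 genes in a test of the difference itself (limma, adjusted p under 0.01). All 8 were higher at 12 h, against 5.31% of all genes. The difference in log2 fold change was 1.29 for Col4a1, 1.11 for Col4a2, 1.13 for Lama1, 0.73 for Lamb1, 0.72 for Serpinh1, 0.69 for Lamc1, 0.56 for Sparc and 0.41 for Nid2. Every degraded library lay above every kept one at 12 h for these 8 genes. The share of all genes without overlap was not counted, so this separation has no background and adds nothing to the test.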

How the results depend on the processing

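No result for the 10 genes changed direction while called. Numbers of the 10 called at adjusted p under 0.01 and 0.75 in size changed as follows. For p53 activation at 4 h 0 became 1 with voom and 1 with quantile normalization (0 to 1 with a library left out, 1 without 0 h replicate 2 or 4 h replicate 2). At 8 h 1 became 2 with voom, 2 with quantile normalization and 2 with median centring (1 to 1 with a library left out). At 12 h 1 became 3 with voom, 4 with quantile normalization, 2 with centring and 0 with the replicate block (0 to 2 with a library left out, 2 without 12 h replicate 2, 0 without any 0 h library). From 8 to 12 h 0 became 1 with all groups in 1 fit (0 to 1 with a library left out, 1 without 12 h replicate 1). For Trim24 loss at 12 h 3 became 5 with voom and 5 with quantile normalization (3 to 4 with a library left out, 4 without the kept replicate 2 or the degraded replicate 3). With an adjusted p under 0.05 and no minimum size, activation called 5 at 4 h, 6 at 8 h and 8 at 12 h. Over all genes it called 9423 of 15772, 13321 of 16497 and 13782 of 16402. The steps called 2 from 2 to 4 h, 6 from 4 to 8 h and 5 from 8 to 12 h. Over all genes they called 6730 of 15816, 11391 of 16522 and 6967 of 16876. Trim24 loss called 1 at 8 h (1893 of 17424 over all genes) and 8 at 12 h (5265 of 16774). Trim24 loss called 3 in the RING experiment, and activation in wild-type cells 1. At an adjusted p under 0.01 and any size, 9.86% of all genes were higher and 3.73% lower in the RING experiment. In wild-type cells these shares were 14.2% and 13.2%. The ligase-null counts stayed at 7 under all alternatives at the same threshold, and the count for 12 h against 4 h at 8 under the 3 alternatives run for it. The replicate block changed no other count. No paired analysis was possible because the ligase-null cells and the groups compared with them share fewer than 2 replicate numbers.

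Over all genes, counts moved by more than 1.5 times with no filter (activation at 2 h 581 to 138, 2 to 4 h 1550 to 976, Trim24 loss at 2 h 53 to 0, at 4 h 186 to 116, uninduced 12 to 0), without trend and robust estimation (53 to 23 at 2 h, 186 to 90 at 4 h, 276 to 162 at 8 h, 12 to 0 uninduced) and, in wild-type cells, without doxorubicin replicate 1 (1688 to 676). After quantile normalization the time differences called 20 in place of 13 at 2 h and 77 in place of 45 at 8 h. Depth did not limit the 10 genes, which had at least 385 reads in each library.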

Other observations

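The 0 h libraries of the time course and the untreated libraries of the uninduced experiment carry the same genotype and treatment in their titles. Beside the 10 genes, the list of enzymes that modify and crosslink collagen summed to 3873 to 4023 CPM in the first and 7146 to 7514 CPM in the second, and the list of matrix proteases and inhibitors to 482 to 501 and 1798 to 1879.8 CPM. The list of receptors summed to 2125 to 2155 and 2219 to 2270.3 CPM, and the list of 32 other basement membrane components to 1515 to 1700.5 and 1416 to 1537 CPM, so the latter lists lay close together in both experiments. The values were not tested, since they come from separate experiments.

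Within the time course the level of Hspg2 per kb over that of Nid1, both genes of proteins that link the laminin and collagen networks, went from 0.16 ± 0.02 at 0 h to 1.01 ± 0.28 at 12 h with Trim24 kept and 0.77 ± 0.09 with Trim24 degraded (mean ± SD, n = 3 each). In the ligase-null cells, after 4 h, it was 0.19 ± 0.03 (n = 4).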
